A study of Mus musculus with 36 samples.

Results

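Livers of mice given olive oil for 2 months were compared with livers of mice taken at the start of the same study, over all genes. The members are 12 of the 36 libraries: the 6 whose titles begin with month2_oil and the 6 whose titles begin with month0_control, chosen by title alone. All were livers of male C57BL/6N mice (Janvier), 8 to 10 weeks old at the start and fed a standard diet without restriction. The month 2 mice received intraperitoneal olive oil, the vehicle of the carbon tetrachloride arm, with 2 injections a week, and were sampled on day 6 after the last one. The month 0 mice carry control in their titles but olive oil in their treatment label at 0 months, and the sources used here do not say whether they were injected or handled. Age, 2 months of injections and the sampling session all differ between the groups and cannot be told apart. The labels do not say that replicates came from separate mice, although each library is called a mouse below. The p-values of the main fit measure the spread between samples within the groups of all 36 libraries. The 6 month 12 oil mice are given for levels only.

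The acute phase response is a programme by which hepatocytes raise secreted defence proteins when cytokines, above all IL-6 and IL-1, reach the liver. Serum amyloid A, haptoglobin, orosomucoids, fibrinogen and lipocalin 2 are its classical products, induced through STAT3 and C/EBP factors. The liver clock is a feedback loop in which ARNTL (BMAL1) and CLOCK activate Per, Cry and Nr1d genes, whose products repress the activators, while DBP, TEF and HLF carry the rhythm to metabolic genes. Both programmes move hepatic lipid genes, so they are described together with the genes of fatty acid and cholesterol metabolism.

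Library totals lay between 21141657 and 27323562 counts at month 0 and between 23760704 and 28917545 in month 2 oil, and the tested genes numbered 15338. Levels below are CPM, counts relative to library size with TMM scaling, given as the lowest, median and highest of the 6 mice of a group. Fold changes are log2 values of month 2 oil over month 0 from 1 edgeR fit of all 36 libraries, with a standard error (SE). Calls required an adjusted p (Benjamini-Hochberg, across the whole table) under 0.05. Of 15338 genes, 4797 were called (31.3%), 2274 higher (14.8%) and 2523 lower (16.4%). The 12 values did not overlap for 1071 genes with month 2 oil above (6.98%) and for 1061 with month 2 oil below (6.92%). At least 2-fold changes were called for 557 genes upward (3.63%) and 496 downward (3.23%). Acute phase transcripts made up between 13.7% and 22.4% of all counts at month 0, against between 2.41% and 3.94% in month 2 oil. With library totals in place of TMM the median log2 fold change became 0.227 and the calls split into 5270 upward and 1028 downward. Lists below carry their counts with library totals where either count moved by over 1.5 times. All changes given are relative to the TMM centre. Hepatocyte markers were abundant in all 12 livers, with Alb between 42984 and 81625 CPM and Hnf4a between 331 and 661 CPM. Alb, Hnf4a and Apoa1 were not called. Alb was called with library totals (log2 fold change 0.45, adjusted p = 0.0261), and Hnf4a was called lower with replicates 1 to 3 of each group alone (-0.51, adjusted p = 0.047). Ttr, a further marker, was called higher (0.38), but not without month 0 replicate 5 (adjusted p = 0.0578). Of 20 hepatocyte identity genes, 4 rose (20%) and 4 fell (20%).

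Replicates 1 to 3 of each group stood apart from replicates 4 to 6 of the same group for many genes. In month 0, 24.7% of the tested genes had replicates 1 to 3 wholly above or wholly below replicates 4 to 6, and in month 2 oil 23.6%. The labels name no batch for these numbers. Fits to replicates 1 to 3 alone and to replicates 4 to 6 alone, added after seeing the data, called 1133 and 5043 genes. Of the 4797 called genes, 4775 were tested in both, and 4660 had the same direction in both, a share that the choice of called genes partly fixes. Each list below is therefore also given for the fit to replicates 1 to 3 and the fit to replicates 4 to 6, with 3 mice a group in each.

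Nearly all acute phase genes were lower at month 2. Of 26 acute phase genes, 24 fell (92.3%) and 0 rose, against 16.4% and 14.8% of all tested genes. In 22 of the 26 all 6 month 2 oil mice lay below all 6 month 0 mice, against 6.92% of all tested genes. The median log2 fold change was -2.93, against 0.00 over all tested genes. The fit gave 0 higher and 20 lower with replicates 1 to 3, 0 and 24 with replicates 4 to 6. The members summed to 175803 to 295519 CPM at month 0 and 24353 to 41428 CPM in month 2 oil.

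The sequences shown first are the 250 bases before the annotated start of some acute phase genes called lower, on the strand of the gene and from 5′ to 3′. Every gene shown holds a match to a pattern below, so these genes do not stand for the list. Genes that fell and hold a match but are not shown include Itih4. They come from the RefSeq promoter table of GRCm38.p6, which held 21 of the 26 genes with 24 entries. Capitals mark matches on either strand to the C/EBP pattern TTGCNNAA or the STAT pattern TTCNNNGAA. These patterns do not overlap here.
Saa1, chr7:46742981-46743230, minus strand: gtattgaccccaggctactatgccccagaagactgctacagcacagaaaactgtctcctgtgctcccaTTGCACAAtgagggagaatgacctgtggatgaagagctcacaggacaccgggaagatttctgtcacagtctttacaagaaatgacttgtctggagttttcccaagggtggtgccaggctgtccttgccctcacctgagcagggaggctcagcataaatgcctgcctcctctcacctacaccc
Saa2, chr7:46751583-46751832, plus strand: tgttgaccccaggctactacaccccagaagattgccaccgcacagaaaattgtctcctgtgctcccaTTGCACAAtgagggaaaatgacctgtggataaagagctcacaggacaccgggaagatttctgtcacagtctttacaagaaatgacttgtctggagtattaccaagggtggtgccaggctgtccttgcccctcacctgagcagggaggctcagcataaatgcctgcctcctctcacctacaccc
Saa3, chr7:46715677-46715926, minus strand: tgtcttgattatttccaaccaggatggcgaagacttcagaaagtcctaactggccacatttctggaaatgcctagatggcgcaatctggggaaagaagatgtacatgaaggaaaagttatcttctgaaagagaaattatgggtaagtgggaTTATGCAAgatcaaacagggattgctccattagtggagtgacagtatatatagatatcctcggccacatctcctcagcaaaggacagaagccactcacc
Lcn2, chr2:32387740-32387989, minus strand: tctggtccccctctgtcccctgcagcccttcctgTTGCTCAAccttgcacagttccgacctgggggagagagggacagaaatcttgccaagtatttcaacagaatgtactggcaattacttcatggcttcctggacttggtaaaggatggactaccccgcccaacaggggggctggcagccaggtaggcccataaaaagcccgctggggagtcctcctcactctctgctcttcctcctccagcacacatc
Orm2, chr4:63362199-63362448, plus strand: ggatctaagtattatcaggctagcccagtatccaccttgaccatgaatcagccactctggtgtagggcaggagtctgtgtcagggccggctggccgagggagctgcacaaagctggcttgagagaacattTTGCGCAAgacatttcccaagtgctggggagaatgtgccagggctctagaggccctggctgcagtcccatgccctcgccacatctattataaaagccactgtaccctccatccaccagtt
Fgb, chr3:83049864-83050113, minus strand: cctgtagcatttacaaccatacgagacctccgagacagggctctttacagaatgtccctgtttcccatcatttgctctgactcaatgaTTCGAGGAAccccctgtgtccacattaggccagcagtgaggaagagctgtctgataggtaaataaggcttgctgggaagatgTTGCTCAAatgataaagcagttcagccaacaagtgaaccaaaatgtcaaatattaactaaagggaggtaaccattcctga
Apcs, chr1:172895055-172895304, minus strand: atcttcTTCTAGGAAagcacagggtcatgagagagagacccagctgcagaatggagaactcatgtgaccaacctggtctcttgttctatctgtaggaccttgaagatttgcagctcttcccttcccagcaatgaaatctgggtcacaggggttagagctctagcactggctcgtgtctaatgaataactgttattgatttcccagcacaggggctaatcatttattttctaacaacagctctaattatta
Steap4, chr5:7960222-7960471, plus strand: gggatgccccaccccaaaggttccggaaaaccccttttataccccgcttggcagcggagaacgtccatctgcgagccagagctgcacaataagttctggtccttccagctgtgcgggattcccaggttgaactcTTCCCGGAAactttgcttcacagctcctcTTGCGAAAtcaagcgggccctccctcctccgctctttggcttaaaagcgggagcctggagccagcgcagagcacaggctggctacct
The Saa1 and Saa2 stretches lie on opposite strands of chromosome 7 and share 238 of 251 aligned columns (94.8%), while Saa1 and Saa3 share 50.2%. The C/EBP pattern begins 182 bases before the start in Saa1, 99 in Saa3, 216 in Lcn2 and 120 in Orm2. Fgb and Steap4 hold both patterns, and Apcs the STAT pattern alone, 244 bases before its start. Of the 24 entries, 12 hold the C/EBP pattern (50%) and 7 the STAT pattern (29.2%), against 9.56% and 7.02% of the 32851 promoters in the table. Of the 7 genes with the STAT pattern, Hamp and Hamp2 were the list's members that were not called. A match describes letters and shows neither binding nor use.

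Serum amyloid A transcripts were among the most abundant at month 0. Saa1 (chr7:46740497-46742980 on GRCm38, as are all gene positions here), an apolipoprotein of the acute phase, had 17104, 19590 and 23391 CPM at month 0 and 31.9, 101 and 731 CPM in month 2 oil (log2 fold change -6.72, SE 1.10, adjusted p = 2.55e-05). Saa2, its neighbour, had 18045, 21734 and 26888 CPM at month 0 and 13.8, 28.8 and 528 CPM in month 2 oil (log2 fold change -7.62, SE 1.44, adjusted p = 1.54e-04). All month 0 mice lay within a narrow high band for both genes, and every month 2 mouse lay far below it, with replicate 3 the highest. Reads of these near-identical copies cannot be assigned with certainty to 1 of them. Saa3, which macrophages and adipocytes also make, had 93.8, 354 and 763 CPM at month 0 and 19.5, 26.4 and 34 CPM in month 2 oil (log2 fold change -3.90, SE 0.54, adjusted p = 2.04e-06), and the groups did not overlap. In month 12 oil Saa1 stood at 139, 314 and 7684 CPM, so replicates 4 and 5 of that later group were again above 1000 CPM.

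Lcn2, a siderophore-binding lipocalin (chr2:32384633-32388252), had 710.2, 1581 and 2986 CPM at month 0 and 4.43, 6.37 and 36.4 CPM in month 2 oil (log2 fold change -7.19, SE 0.96, adjusted p = 1.17e-06). Its lowest month 0 mouse was above its highest month 2 mouse, replicate 3 again. Orm2, an orosomucoid (chr4:63362449-63365878), fell from 1966, 2259 and 3238 to 11, 16.1 and 48.9 CPM (log2 fold change -6.80, SE 0.79, adjusted p = 9.65e-08). Orm1 had 6080, 7007 and 9601 CPM at month 0 and 664, 722 and 952 CPM in month 2 oil (log2 fold change -3.28, SE 0.24, adjusted p = 1.46e-11), a 9.7-fold difference against 112-fold for Orm2. Reads of the orosomucoid genes may be shared among copies.

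Haptoglobin and fibrinogen fell less than Lcn2, Orm1 and Orm2, from levels higher than theirs. Hp, which binds free haemoglobin (chr8:109575128-109579172), had 16744, 22030 and 31546 CPM at month 0 and 2087, 2449 and 3983 CPM in month 2 oil (log2 fold change -3.07, SE 0.29, adjusted p = 2.50e-09). Fgg, the fibrinogen gamma chain, had 13610, 18217 and 26746 CPM at month 0 and 3402, 3957 and 6083 CPM in month 2 oil (log2 fold change -2.17, SE 0.23, adjusted p = 2.66e-08). Neither gene showed any overlap between groups. Fgb, the beta chain whose promoter is printed above, changed alike, log2 fold change -2.15, SE 0.23, adjusted p = 3.90e-08. Itih4, an inter-alpha-trypsin inhibitor chain (chr14:30886476-30902353), gave the smallest p of the list, with 8071, 9616 and 13823 CPM at month 0 and 1327, 1457 and 2092 CPM in month 2 oil (log2 fold change -2.73, SE 0.16, adjusted p = 1.34e-13). Its relative Itih3 fell from 5896, 6704 and 8419 to 732, 834 and 999.6 CPM (adjusted p = 1.46e-11), and no value crossed between groups.

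The largest fold change of all named genes was that of A2m, alpha-2-macroglobulin, a protease inhibitor (chr6:121635376-121679227). Month 2 oil mice held 0.0913, 0.225 and 0.344 CPM, close to silence. Month 0 mice were spread over a wide range, with 7.79, 10.7 and 3.4 CPM in replicates 1, 2 and 3 and 1300, 1045 and 153 CPM in replicates 4, 5 and 6. The fitted difference was -10.91 (SE 1.65, adjusted p = 7.58e-06), and it was -5.17 (adjusted p = 0.0783) with replicates 1 to 3 and -11.81 (adjusted p = 3.76e-07) with replicates 4 to 6. With limma-voom it was -8.14 and not called (adjusted p = 0.0548). Apcs, serum amyloid P component, the acute phase pentraxin of mice, had 1759, 3030 and 4821 CPM at month 0 and 80.7, 98 and 146 CPM in month 2 oil (log2 fold change -4.88, SE 0.49, adjusted p = 5.29e-09). The groups were wholly apart for Apcs, and the month 0 mice lay within a narrower range than for A2m.

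Hepcidin was the exception. Hamp, the iron hormone that IL-6 also induces, had 329, 379 and 687 CPM at month 0 and 197, 406 and 612 CPM in month 2 oil (log2 fold change -0.06, SE 0.44, adjusted p = 0.931). The groups covered the same range, and the sign of the small difference turned without month 0 replicate 4 (0.11) or month 2 oil replicate 1 (0.08). Its copy Hamp2 had 3.43, 6.49 and 25.9 CPM at month 0 and 3.27, 4.63 and 6.84 CPM in month 2 oil (adjusted p = 0.227), with the highest value in month 0 replicate 3. These members were named as the list's exceptions after their values were seen.

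**Figure D1:**
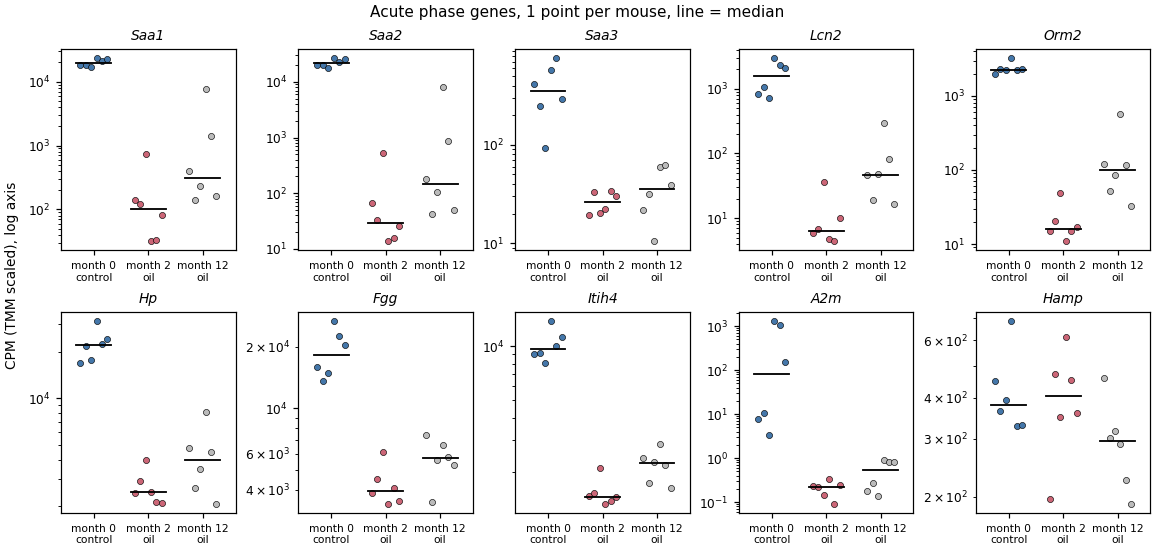
CPM of 10 acute phase genes on log axes, 1 point per mouse, for month 0 control, month 2 oil and month 12 oil, with a line at the median of 6. For 9 of the 10 genes every month 0 point lies above every month 2 oil point, while Hamp overlaps.

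Other plasma proteins of the liver moved the same way. Of 26 coagulation genes, 15 fell (57.7%) and 3 rose (11.5%), against 16.4% and 14.8% of all tested genes (median -0.56). Replicates 1 to 3 gave 0 higher and 11 lower, replicates 4 to 6 gave 5 and 13, and library totals 7 and 13. Cpb2, a carboxypeptidase that slows clot lysis, had 1165, 1406 and 1847 CPM at month 0 and 337, 366 and 399 CPM in month 2 oil (log2 fold change -1.98, SE 0.14, adjusted p = 5.08e-12). Pros1, the cofactor protein S, and Kng2, a kininogen, fell by 0.89 and 1.26 on the log2 scale, and in all 3 genes the groups were apart. The fibrinogen chains belong to this list too. Klkb1, plasma prekallikrein, rose from 112, 222 and 347 to 395, 442 and 514 CPM (log2 fold change 0.95, SE 0.21, adjusted p = 9.16e-04). Plau, urokinase, rose from 0.611, 1.36 and 1.85 to 2.51, 2.98 and 6.26 CPM (adjusted p = 1.16e-04). Both were separated between groups. Proc, protein C, was called higher (log2 fold change 0.23, SE 0.09, adjusted p = 0.0499) with overlapping groups, and lost the call in 10 of the 12 fits that each left out 1 library (adjusted p 0.0583 to 0.208), all but those without month 0 replicate 2 or month 2 oil replicate 3. It was not called with no low-count filter or with the 12 libraries alone either (adjusted p = 0.0541 and 0.0612).

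Complement showed a core of falling components. Of 24 genes, 11 fell (45.8%) and 1 rose (4.17%), against 16.4% and 14.8% of all tested genes (median -0.36). Replicates 1 to 3 gave 0 higher and 9 lower, replicates 4 to 6 gave 2 and 10, and library totals 3 and 9. C3, the central component, had 14256, 15379 and 19222 CPM at month 0 and 4886, 5170 and 6064 CPM in month 2 oil (log2 fold change -1.56, SE 0.14, adjusted p = 6.24e-10). C4bp, which inactivates C4b, fell from 1381, 1469 and 1931 to 621, 635 and 721 CPM (adjusted p = 2.92e-10). The groups were apart for both of these genes. C8g, the gamma chain of C8 and a lipocalin, was the member that rose (log2 fold change 0.51, SE 0.13, adjusted p = 0.00331), again without overlap.

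Iron genes were mixed. Of 23 genes of iron and metal handling, 9 fell (39.1%) and 4 rose (17.4%), against 16.4% and 14.8% of all tested genes. The median was -0.34 (0 higher and 2 lower with replicates 1 to 3, 2 and 9 with replicates 4 to 6), and 2 rose without month 0 replicate 4. Trf, transferrin, had 27378, 32369 and 47666 CPM at month 0 and 12174, 13943 and 14990 CPM in month 2 oil (log2 fold change -1.33, SE 0.18, adjusted p = 9.32e-07). Slc39a14, a zinc and iron importer, fell by 1.05 and Slc11a2, an iron transporter, by 0.84 on the log2 scale. Trf and Slc39a14 were apart between groups and Slc11a2 overlapped. Slc40a1, the iron exporter ferroportin, rose (log2 fold change 0.57, SE 0.14, adjusted p = 0.00189), as did Bmp6, an endothelial signal that controls hepcidin (log2 fold change 1.00, SE 0.24, adjusted p = 0.00201). The ferritin chains Fth1 (0.29) and Ftl1 (0.32) were called higher by small amounts. Fth1 lost the call without month 0 replicate 1, 4, 5 or 6, or without month 2 oil replicate 1, 2 or 5 (adjusted p 0.0537 to 0.1), and Ftl1 without month 0 replicate 4 (adjusted p = 0.0737). Mt2, a metallothionein, was among the 12 most reduced genes, with 199, 739 and 876 CPM at month 0 and 2.78, 8.26 and 53.5 CPM in month 2 oil (log2 fold change -5.07, SE 1.01, adjusted p = 2.78e-04).

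Genes of cytokine signalling upstream of these proteins fell in part. Of 13 IL-6 and STAT3 feedback genes, 6 fell (46.2%) and 1 rose (7.69%), against 16.4% and 14.8% of all tested genes (median -0.62). Replicates 1 to 3 gave 0 higher and 2 lower, replicates 4 to 6 gave 2 and 6, and library totals 3 and 6. Osmr, the oncostatin M receptor, had 14.7, 24.4 and 31.5 CPM at month 0 and 6.11, 7.36 and 8.97 CPM in month 2 oil (log2 fold change -1.64, SE 0.21, adjusted p = 4.97e-07). Il1r1, the IL-1 receptor, had 67.1, 147 and 203 CPM at month 0 and 27, 33.5 and 61.8 CPM in month 2 oil (log2 fold change -1.91, SE 0.28, adjusted p = 5.94e-06). For both receptors the highest month 2 mouse was below the lowest month 0 mouse. Jak3, a cytokine receptor kinase, fell by 0.97 on the log2 scale without overlap. Socs3, the STAT3-induced inhibitor, fell from 30.9, 37.6 and 71.4 to 7.53, 10.2 and 27.1 CPM (log2 fold change -1.79, SE 0.41, adjusted p = 0.00119), and Stat3 itself by 0.70 (adjusted p = 3.83e-04). Socs3 and Stat3 were named after their values were seen. Lifr, the receptor of leukaemia inhibitory factor, was called higher (log2 fold change 0.48, SE 0.18, adjusted p = 0.046) but lost the call in 9 fits that each left out 1 library (adjusted p 0.054 to 0.14), all but those without month 0 replicate 2 or month 2 oil replicate 4 or 5, and with no low-count filter (adjusted p = 0.0508).

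Glucocorticoid-responsive genes were lower in part. Of 18, 9 fell (50%) and 2 rose (11.1%), against 16.4% and 14.8% of all tested genes (median -0.69). Replicates 1 to 3 gave 0 higher and 4 lower, and replicates 4 to 6 gave 2 and 9. Lcn2 and Mt2 are among the 9. Fkbp5, Tsc22d3, Per1, Zbtb16, Tat, Errfi1 and Pik3r1 were not called. Ddit4, an inhibitor of mTOR signalling, had 14.2, 27.8 and 38.8 CPM at month 0 and 2.67, 7.26 and 9.54 CPM in month 2 oil (log2 fold change -2.06, SE 0.37, adjusted p = 7.80e-05). Cdkn1a, the cell cycle inhibitor p21, had 2.94, 11.1 and 16.2 CPM at month 0 and 0.731, 0.978 and 1.63 CPM in month 2 oil (log2 fold change -3.27, SE 0.60, adjusted p = 1.06e-04). No month 2 mouse reached the lowest month 0 mouse for either gene. Klf9, a glucocorticoid-induced and rhythmic factor, rose by 0.61 (adjusted p = 0.00261). Dusp1, a MAP kinase phosphatase, was called higher (log2 fold change 0.88, SE 0.33, adjusted p = 0.0391), but not without month 0 replicate 1, 3 or 4, or without month 2 oil replicate 1, 4 or 5 (adjusted p 0.0762 to 0.105), nor with limma-voom (adjusted p = 0.0837).

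Endoplasmic reticulum chaperones fell with the secreted proteins. Of 29 genes of the ATF4 and unfolded protein responses, 14 fell (48.3%) and 1 rose (3.45%), against 16.4% and 14.8% of all tested genes. The median was -0.61. Replicates 1 to 3 gave 0 higher and 3 lower, replicates 4 to 6 gave 3 and 13, and library totals 4 and 13. Manf, a secreted stress factor of the endoplasmic reticulum, had 186, 229 and 289 CPM at month 0 and 42.2, 62.8 and 105 CPM in month 2 oil (log2 fold change -1.80, SE 0.28, adjusted p = 1.10e-05). Atf4 fell from 85.2, 131 and 143 to 60.9, 72.9 and 79.5 CPM (adjusted p = 1.13e-05), and Edem1, of glycoprotein disposal, by 0.65 on the log2 scale. The groups did not overlap for these 3 genes. Trib3, a pseudokinase, was the member that rose, from 1.25, 1.56 and 2.45 to 2.96, 5.89 and 6.59 CPM (log2 fold change 1.67, SE 0.45, adjusted p = 0.00487), and was not called with limma-voom (adjusted p = 0.0505).

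Heat shock genes were lower. Of 15, 8 fell (53.3%) and 0 rose, against 16.4% and 14.8% of all tested genes (median -0.46). Replicates 1 to 3 gave 0 higher and 8 lower, replicates 4 to 6 gave 0 and 2, and library totals 0 and 5. Without month 0 replicate 1, 5 fell. Hsp90aa1, a cytosolic chaperone, had 598, 736 and 919 CPM at month 0 and 161, 259 and 567 CPM in month 2 oil (log2 fold change -1.34, SE 0.29, adjusted p = 5.57e-04), and the groups were apart. Hsph1 fell by 1.41 and Hspa4l by 0.84 on the log2 scale. The difference between the fit to replicates 1 to 3 and the fit to replicates 4 to 6 was not tested.

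**Figure D2:**
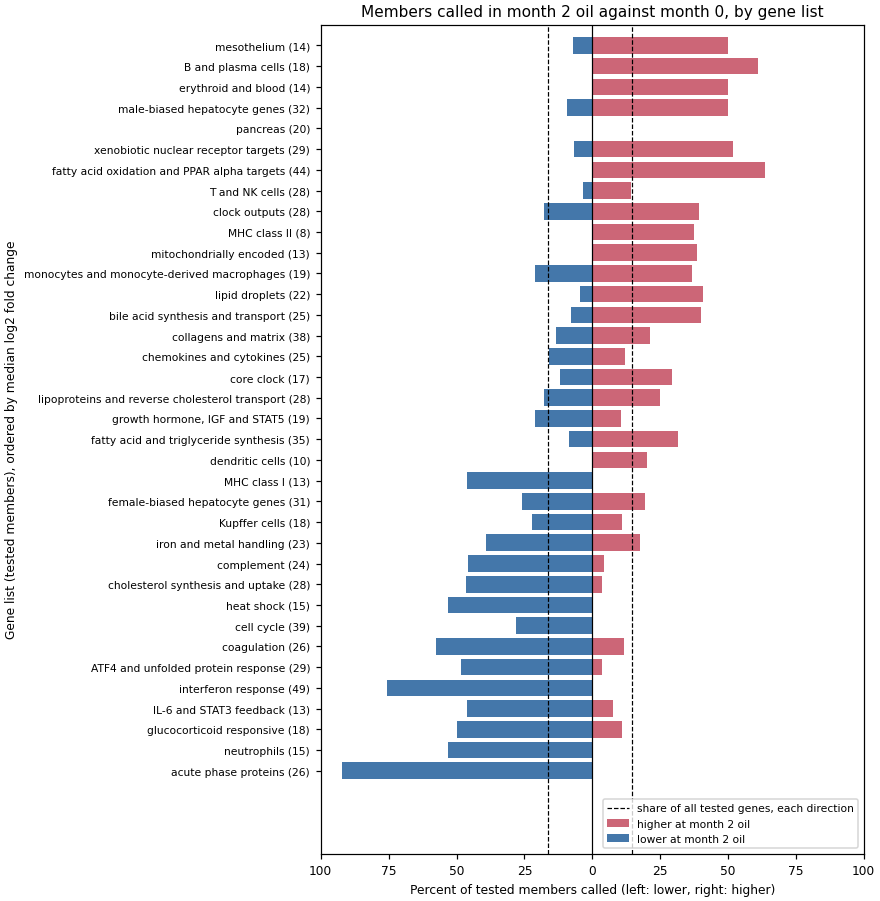
Percent of tested members called lower (left) or higher (right) in month 2 oil against month 0 for 36 gene lists, ordered by median log2 fold change, with dashed lines at the share of all tested genes (16.4% lower and 14.8% higher). The acute phase and interferon lists reach farthest to the left and the fatty acid oxidation and B cell lists farthest to the right.

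Interferon-stimulated genes fell broadly and by small amounts. Of 49 tested, 37 fell (75.5%) and 0 rose, against 16.4% and 14.8% of all tested genes (median -0.62). Replicates 1 to 3 gave 0 higher and 24 lower, and replicates 4 to 6 gave 2 and 20. Month 2 oil lay wholly below month 0 for 10 of the 49, against 6.92% of all tested genes. Scaling by library totals left 23 lower and 1 higher. The members summed to 2437, 3221 and 2390 CPM in month 0 replicates 1, 3 and 5. In month 0 replicates 2, 4 and 6 they summed to 1589, 1664 and 1707 CPM, near the 1354 to 1606 CPM of month 2 oil. Zbp1, a sensor of nucleic acids (chr2:173206612-173218923), had 11.7, 18.8 and 30.2 CPM at month 0 and 3.15, 4.42 and 5.81 CPM in month 2 oil (log2 fold change -2.24, SE 0.23, adjusted p = 1.32e-08). Stat2, the interferon signal transducer, had 53.1, 58.7 and 70.9 CPM at month 0 and 26.5, 32.1 and 41.1 CPM in month 2 oil (log2 fold change -0.88, SE 0.10, adjusted p = 7.72e-08). For Zbp1 and Stat2 no month 2 mouse reached a month 0 mouse, while Xaf1, an apoptosis factor, overlapped (log2 fold change -0.89, SE 0.15, adjusted p = 2.56e-05).

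Antigen presentation genes split by class. Of 13 class I genes, 6 fell (46.2%) and 0 rose, against 16.4% and 14.8% of all tested genes. Their median of -0.17 became 0.06 under scaling by library totals. Replicates 1 to 3 gave 0 higher and 4 lower, replicates 4 to 6 gave 0 and 5, and library totals 1 and 3. Tapbp, which loads peptide, fell by 0.51, H2-T22 by 0.51 and H2-Q10, a secreted class I molecule of liver, by 0.54 on the log2 scale, all without overlap. Class I genes are near-identical copies whose reads may be shared. Of 8 class II genes, 3 rose (37.5%) and 0 fell, against 14.8% and 16.4% of all tested genes (median 0.48). H2-Aa had 11.5, 24.5 and 34.6 CPM at month 0 and 20.1, 41.5 and 79.2 CPM in month 2 oil (log2 fold change 0.86, SE 0.27, adjusted p = 0.0147), with overlapping groups. Cd74, the invariant chain (0.71), and H2-Eb1 (0.89) were also called. None of the 3 was called without month 2 oil replicate 4 (adjusted p = 0.0768 for H2-Aa), nor Cd74 and H2-Eb1 without month 0 replicate 4, nor H2-Eb1 without replicate 6 of either group (adjusted p 0.0511 to 0.0832) or with the 12 libraries alone (adjusted p = 0.0639). With replicates 1 to 3 the class II counts were 0 higher and 1 lower, and with replicates 4 to 6 they were 5 and 0.

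Markers of blood-borne cells are summed transcripts of whole liver, in which fewer cells of a type and less RNA per cell cannot be told apart. Neutrophil markers were lower: of 15 tested, 8 fell (53.3%) and 0 rose, against 16.4% and 14.8% of all tested genes (median -0.98). Replicates 1 to 3 gave 0 higher and 5 lower, replicates 4 to 6 gave 1 and 8, and library totals 1 and 7. The 15 summed to 1044 to 1235 CPM at month 0 and 484 to 665 CPM in month 2 oil. Most of that sum came from members whose levels are not given here, so it does not measure the fall of the markers named next. S100a9, a calcium-binding protein of neutrophils, had 22.4, 41.5 and 55.8 CPM at month 0 and 2.88, 5.24 and 6.07 CPM in month 2 oil (log2 fold change -3.13, SE 0.56, adjusted p = 8.45e-05). Retnlg had 1.91, 4.26 and 7.2 CPM at month 0 and 0.385, 0.657 and 1 CPM in month 2 oil (log2 fold change -2.71, SE 0.45, adjusted p = 3.14e-05) and Mmp8, neutrophil collagenase, 1.34, 3.23 and 4.27 CPM at month 0 and 0.132, 0.262 and 0.363 CPM in month 2 oil (log2 fold change -3.57, SE 0.61, adjusted p = 4.41e-05). All 3 were apart between groups. Prtn3, a serine protease of myeloid granules outside the list, had 40.9, 50.4 and 57.4 CPM at month 0 and 0.137, 0.362 and 2.51 CPM in month 2 oil (log2 fold change -6.11, SE 0.80, adjusted p = 8.71e-07) and ranked among the 12 lowest fold changes.

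B cell and plasma cell markers were higher. Of 18 tested, 11 rose (61.1%) and 0 fell, against 14.8% and 16.4% of all tested genes (median 1.15). The 18 summed to 14.9 to 25.9 CPM at month 0 and 25.3 to 96.1 CPM in month 2 oil. Jchain, the joining chain of secreted antibodies, had 1.4, 2.13 and 2.8 CPM at month 0 and 5, 25.5 and 58.4 CPM in month 2 oil (log2 fold change 3.74, SE 0.72, adjusted p = 1.74e-04). Pou2af1, a B cell coactivator, rose by 2.61 and both genes were separated. Cd79b, of the B cell receptor, had 0.374, 0.61 and 1.29 CPM at month 0 and 1.09, 2.4 and 4.05 CPM in month 2 oil (log2 fold change 1.84, SE 0.32, adjusted p = 5.56e-05), and its partner Cd79a rose by 1.60. Cd79a and Cd79b overlapped between groups and stayed below 5 CPM. With replicates 1 to 3 alone none of the list was called (median 0.54), and with replicates 4 to 6 alone 13 were higher (median 1.31).

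T and NK cell markers were called higher about as often as all genes, and lower less often. Of 28 tested, 4 rose (14.3%) and 1 fell (3.57%), against 14.8% and 16.4% of all tested genes. The median was 0.52 (0 higher and 0 lower with replicates 1 to 3, 10 and 0 with replicates 4 to 6). Scaling by library totals gave 11 higher and 0 lower, and leaving out 1 library gave 3 to 7 higher. Themis, a T cell signalling protein, had 0.662, 0.703 and 1.34 CPM at month 0 and 0.909, 2.42 and 4.63 CPM in month 2 oil (log2 fold change 1.71, SE 0.35, adjusted p = 3.58e-04). Ccl5 rose by 1.43 (not called with limma-voom, adjusted p = 0.0755) and Cd2 by 1.40, and Cd3e, the defining chain of the T cell receptor complex, had 0.153, 0.19 and 0.278 CPM at month 0 and 0, 0.269 and 0.689 CPM in month 2 oil (adjusted p = 0.293). All these levels were at the floor of a few CPM or less, with overlapping groups. Gzmb, a granzyme, was called lower (log2 fold change -0.93, SE 0.33, adjusted p = 0.0311), but not without month 0 replicate 3 or 5, or without month 2 oil replicate 1, 3 or 5 (adjusted p 0.0557 to 0.12), nor with library totals, no low-count filter or limma-voom (0.0862, 0.0548 and 0.0839).

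Macrophage genes rose and fell within 1 list. Of 19 markers of monocytes and their macrophages, 7 rose (36.8%) and 4 fell (21.1%), against 14.8% and 16.4% of all tested genes. The median was 0.34 (1 higher and 2 lower with replicates 1 to 3, 10 and 5 with replicates 4 to 6). Gpnmb, a glycoprotein of lipid-laden macrophages (chr6:49036546-49070929), had 0.436, 0.644 and 0.774 CPM at month 0 and 4.85, 9.67 and 28.8 CPM in month 2 oil (log2 fold change 4.53, SE 0.52, adjusted p = 7.72e-08). Trem2, a lipid receptor of macrophages, had 2.45, 3.61 and 4.84 CPM at month 0 and 5.31, 6.43 and 10.2 CPM in month 2 oil (log2 fold change 1.00, SE 0.21, adjusted p = 4.83e-04), and neither gene overlapped between groups. Ms4a7 rose by 1.92 with overlap. The members that fell were Cd9 (-0.91), Spp1 (-1.66), Fcgr1 (-0.80) and Plac8 (log2 fold change -1.51, SE 0.35, adjusted p = 0.00138), of which Plac8 alone was separated. Of 18 Kupffer cell markers, 4 fell and 2 rose, near the shares of all genes (0 higher and 1 lower with replicates 1 to 3, 2 and 2 with replicates 4 to 6, 4 and 1 with library totals), and 2 fell without month 2 oil replicate 5 or 6. Il18bp, the inhibitor of IL-18, fell from 27.8, 34.9 and 45.5 to 12.9, 15.7 and 17.9 CPM (adjusted p = 2.23e-07), and Hpgd, which degrades prostaglandins, rose by 0.82. Clec4f, the defining Kupffer cell lectin, had 164, 207 and 226 CPM at month 0 and 118, 132 and 154 CPM in month 2 oil (log2 fold change -0.58, SE 0.20, adjusted p = 0.0265). Its groups did not overlap, but the call was lost without month 2 oil replicate 5 or 6 (adjusted p 0.0512 to 0.0561) and with library totals (log2 fold change -0.36, adjusted p = 0.159). The Kupffer list summed to 1191 to 1460 CPM at month 0 and 1137 to 1447 CPM in month 2 oil.

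Of 25 chemokines and cytokines, 3 rose and 4 fell, near the shares of all genes (0 higher and 2 lower with replicates 1 to 3, 6 and 3 with replicates 4 to 6, 5 and 2 with library totals). Cxcl14 fell from 5.41, 11.9 and 26.4 to 0.748, 1.14 and 2.17 CPM (log2 fold change -3.29, SE 0.52, adjusted p = 1.24e-05), without overlap. Cxcl1, a neutrophil attractant induced by IL-1, had 12.4, 70.3 and 155 CPM at month 0 and 13.2, 17.8 and 30.3 CPM in month 2 oil (log2 fold change -1.97, SE 0.51, adjusted p = 0.00337), with overlap. Csf1 fell by 0.48 (not called with library totals, adjusted p = 0.258), and Ccl4 rose from levels below 1 CPM. Cxcl11 was called lower (-0.76), but not without month 0 replicate 4 or 6, or without month 2 oil replicate 1, 2 or 6 (adjusted p 0.0509 to 0.0892), nor with library totals or no low-count filter (0.133 and 0.0574). Cxcl13, a B cell attractant, had 2.68, 3.49 and 9.78 CPM at month 0 and 3.08, 5.92 and 13.3 CPM in month 2 oil (adjusted p = 0.503). Outside the list, Ccl8, a monocyte chemokine, rose from 0.0967, 0.17 and 0.602 to 1.04, 2.13 and 9.08 CPM (log2 fold change 4.08, SE 0.96, adjusted p = 0.00146), and the groups were apart.

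Clock genes changed in both directions. Of 17 core clock genes, 5 rose (29.4%) and 2 fell (11.8%), and of 28 clock output genes, 11 rose (39.3%) and 5 fell (17.9%). Of all tested genes 14.8% were higher and 16.4% lower, so both lower shares were near that of all genes. The core had 2 higher and 2 lower with replicates 1 to 3, and 4 and 1 with replicates 4 to 6. The outputs had 5 higher and 3 lower with replicates 1 to 3, and 11 and 5 with replicates 4 to 6. The time of day of sampling and any fasting are not given in the sources used here, so time of day and the 2 months cannot be told apart. The promoters shown are those of called core clock genes that hold motifs of the loop itself. Capitals mark the E-box CACGTG that ARNTL and CLOCK bind (Cry1, Bhlhe41) and the D-box TTATGTAA that DBP binds (Per3), both strands searched.
Cry1, chr10:85185055-85185304, minus strand: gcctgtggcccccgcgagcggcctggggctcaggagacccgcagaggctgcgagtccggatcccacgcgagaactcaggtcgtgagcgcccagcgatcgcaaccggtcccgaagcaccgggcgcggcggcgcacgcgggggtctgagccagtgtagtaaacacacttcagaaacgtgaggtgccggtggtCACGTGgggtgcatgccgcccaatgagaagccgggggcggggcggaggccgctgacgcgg
Bhlhe41, chr6:145865421-145865670, minus strand: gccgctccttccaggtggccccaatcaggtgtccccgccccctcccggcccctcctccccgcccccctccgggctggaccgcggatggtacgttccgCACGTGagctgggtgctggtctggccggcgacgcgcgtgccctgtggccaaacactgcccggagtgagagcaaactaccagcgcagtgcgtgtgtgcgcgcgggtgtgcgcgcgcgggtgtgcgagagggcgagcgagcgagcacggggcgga
Per3, chr4:151044666-151044915, minus strand: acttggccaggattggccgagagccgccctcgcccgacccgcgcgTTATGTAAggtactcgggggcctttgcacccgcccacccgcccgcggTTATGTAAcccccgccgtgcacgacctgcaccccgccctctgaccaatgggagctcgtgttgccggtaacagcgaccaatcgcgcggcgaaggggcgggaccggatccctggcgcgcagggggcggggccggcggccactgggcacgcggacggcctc
The E-box begins 60 bases before the start in Cry1 and 153 in Bhlhe41, and the Per3 stretch holds the D-box at 205 and at 158 bases before its start. Of 20 core clock entries for 13 of the 17 genes, 4 hold the E-box (20%), against 6.02% of all promoters in the table. Per1 and Ciart, which were not called, are the others with the E-box. The D-box was in 1 of these entries and in 0.819% of all. Of 29 clock output entries, 5 hold the E-box (17.2%), among them those of the called genes Tef and Tspan4, which are not shown.

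Of the activators, Arntl (chr7:113207465-113314126) had 5.83, 20.3 and 23.9 CPM at month 0 and 1.23, 2.46 and 5.93 CPM in month 2 oil (log2 fold change -2.60, SE 0.67, adjusted p = 0.00346). The groups met at their edges, where the lowest month 0 mouse, replicate 6, lay just under the highest month 2 mouse. Npas2, a partner of ARNTL, had 0.258, 1.48 and 4.25 CPM at month 0 and 0.176, 0.356 and 1 CPM in month 2 oil (log2 fold change -1.67, SE 0.68, adjusted p = 0.0579) and was not called, although it was without month 0 replicate 1 or 6, or without month 2 oil replicate 5 (adjusted p 0.0319 to 0.0443), with the 12 libraries alone (adjusted p = 0.0382) or with DESeq2 (adjusted p = 0.0356). Clock had 76.7, 93 and 98.7 CPM at month 0 and 54.7, 66.9 and 84.5 CPM in month 2 oil (adjusted p = 0.158, and 0.0346 with the 12 libraries alone).

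The nuclear receptor repressors were higher in every month 2 mouse. Nr1d1, REV-ERB alpha (chr11:98767932-98775333), had 0.532, 4.66 and 7.79 CPM at month 0 and 16.7, 22.1 and 44.9 CPM in month 2 oil (log2 fold change 2.52, SE 0.37, adjusted p = 4.38e-06). Nr1d2 had 14.2, 42.6 and 80.1 CPM at month 0 and 122, 136 and 155 CPM in month 2 oil (log2 fold change 1.56, SE 0.32, adjusted p = 3.68e-04). Neither overlapped between groups, and month 0 replicate 4 held the lowest Nr1d1 value.

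Period and cryptochrome genes did not move as 1 block. Per3 had 2.13, 5.94 and 15.2 CPM at month 0 and 14.7, 25.1 and 31.2 CPM in month 2 oil (log2 fold change 1.70, SE 0.60, adjusted p = 0.0291), with touching groups, and was not called without month 0 replicate 3, 4 or 5, or without month 2 oil replicate 1 (adjusted p 0.0508 to 0.0738). Cry1 had 3.41, 9.09 and 15.3 CPM at month 0 and 3.45, 4.34 and 4.84 CPM in month 2 oil (log2 fold change -1.14, SE 0.28, adjusted p = 0.00217), so it fell while Per3 rose. Cry2 was called higher. Per1 had 3.55, 7.51 and 13 CPM at month 0 and 6.76, 13.3 and 18.6 CPM in month 2 oil (adjusted p = 0.214) and Per2 9.37, 14.9 and 26.9 CPM at month 0 and 11.2, 16 and 24.7 CPM in month 2 oil (adjusted p = 0.983). Per1 and Per2 covered overlapping ranges. Bhlhe41, a repressor that competes at E-boxes, rose from 0.618, 1.26 and 3.87 to 2.77, 4.98 and 5.84 CPM (log2 fold change 1.52, SE 0.38, adjusted p = 0.00244), and Ciart had 0.822, 2.66 and 8.1 CPM at month 0 and 1.75, 7.56 and 16.4 CPM in month 2 oil (adjusted p = 0.254).

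Dbp, an output factor that binds the D-box (chr7:45705088-45710203), had 0.725, 4.32 and 21.4 CPM at month 0 and 50.8, 65.9 and 80.9 CPM in month 2 oil (log2 fold change 3.06, SE 0.84, adjusted p = 0.00585). Month 0 mice ranged widely, with 15.9, 4.43, 1.18, 0.725, 4.21 and 21.4 CPM in replicates 1 to 6. Arntl in the same mice was 10.1, 22.5, 23.8, 23.9, 18.1 and 5.83 CPM, so replicates 1 and 6 held the most Dbp and the least Arntl. Month 2 mice were tighter for Dbp, between 50.8 and 80.9 CPM. In month 12 oil Arntl stood at 2.75, 20.9 and 27.7 CPM and Dbp at 2.39, 7.45 and 55.8 CPM, spread over the levels of both earlier groups.

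Rgs16, a regulator of G protein signalling that is rhythmic in periportal hepatocytes (chr1:153740349-153745468), gave the highest fold change of the naming rule. It had 0.0967, 0.956 and 1.65 CPM at month 0 and 18, 43.3 and 62.6 CPM in month 2 oil (log2 fold change 5.59, SE 0.85, adjusted p = 7.93e-06), without overlap. Gys2, liver glycogen synthase, rose from 41, 71.2 and 93.2 to 156, 205 and 310.3 CPM (adjusted p = 5.92e-05). The output genes that fell were Nfil3, a repressor at D-boxes (-1.59), Avpr1a (-1.27), Leo1 (-0.99), Ppard (-1.56) and Tspan4, with 86, 95.8 and 107 CPM at month 0 and 29.8, 42.9 and 52.1 CPM in month 2 oil (log2 fold change -1.21, SE 0.18, adjusted p = 7.00e-06). All of them except Ppard were apart between groups.

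**Figure D3:**
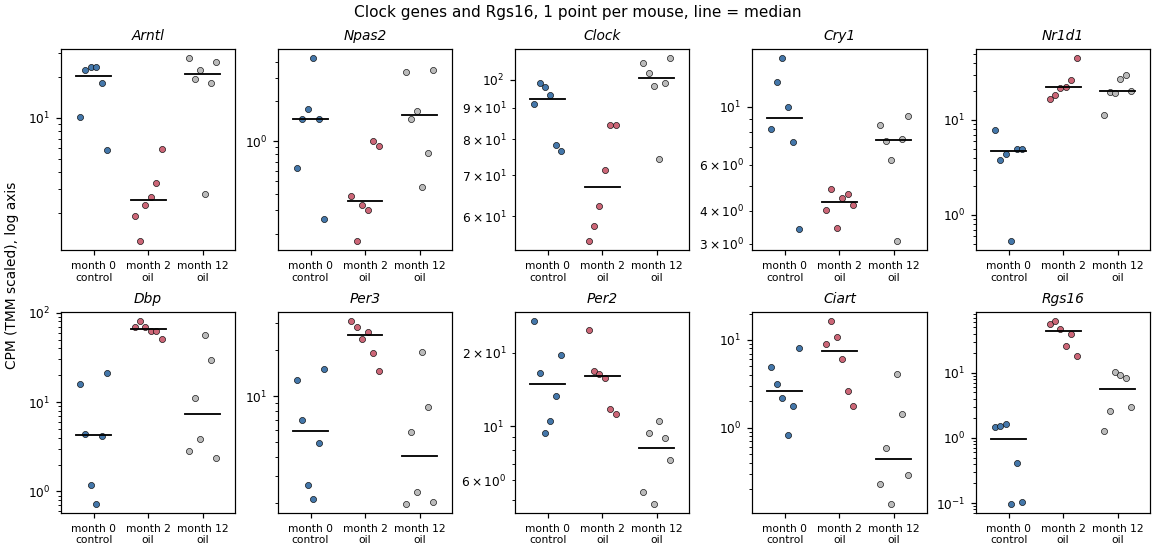
CPM of 9 clock genes and Rgs16 on log axes, 1 point per mouse, for month 0 control, month 2 oil and month 12 oil, with a line at the median of 6. Nr1d1, Dbp and Rgs16 in month 2 oil lie above all month 0 points, and Arntl lies low in month 2 oil.

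Genes of fatty acid oxidation rose together. Of 44 tested genes of beta-oxidation, ketogenesis and other targets of PPAR alpha, the fatty acid sensor of hepatocytes, 28 rose and 0 fell, against 14.8% and 16.4% of all genes. The median was 0.55, and 20 of the 44 were separated with month 2 oil above, against 6.98% of all tested genes. Replicates 1 to 3 gave 7 higher and 0 lower, and replicates 4 to 6 gave 29 and 0. Acot1, a cytosolic acyl-CoA thioesterase (chr12:84009490-84018371), had 0.463, 0.769 and 1.44 CPM at month 0 and 5.81, 9.84 and 13.6 CPM in month 2 oil (log2 fold change 3.47, SE 0.35, adjusted p = 5.29e-09). Fabp1, the liver fatty acid binding protein, had 918, 1351 and 1903 CPM at month 0 and 3625, 4402 and 5952 CPM in month 2 oil (log2 fold change 1.71, SE 0.25, adjusted p = 4.15e-06). Every month 2 mouse was above every month 0 mouse for both. Cpt1a, which admits fatty acids to mitochondria, had 90.3, 156 and 256 CPM at month 0 and 258, 292 and 519 CPM in month 2 oil (log2 fold change 1.11, SE 0.21, adjusted p = 1.30e-04), and Bdh1, of ketone synthesis, rose by 1.26.

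Other classical targets were not called or rested on 1 mouse. Pdk4, which spares glucose, had 2.31, 6.06 and 7.93 CPM at month 0 and 2.42, 2.77 and 6.68 CPM in month 2 oil (adjusted p = 0.155), and Fgf21, a fasting hormone, 0.125, 0.537 and 1.03 CPM at month 0 and 0.616, 0.803 and 1.46 CPM in month 2 oil (adjusted p = 0.244). Both overlapped between groups. Cyp4a14, a fatty acid hydroxylase, was called (log2 fold change 3.31, SE 0.78, adjusted p = 0.00156), with 3.73, 7.04, 10.3, 4.86, 118 and 4.21 CPM in month 2 oil replicates 1 to 6 against 1.21, 2.18 and 4.63 CPM at month 0. Replicate 5 decided the call, which was lost without it (log2 fold change 1.29, adjusted p = 0.0957) and with limma-voom (log2 fold change 2.02, adjusted p = 0.0856). Cd36, a fatty acid transporter, was likewise called (log2 fold change 0.77, SE 0.22, adjusted p = 0.00748) but not without that library (log2 fold change 0.47, adjusted p = 0.0615).

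Genes of fatty acid and triglyceride synthesis changed in part. Of 35 genes, 11 rose (31.4%) and 3 fell (8.57%), against 14.8% and 16.4% of all tested genes (median 0.06). Replicates 1 to 3 gave 5 higher and 1 lower, and replicates 4 to 6 gave 11 and 3. Me1, malic enzyme, which supplies NADPH, had 22.2, 39.1 and 42.8 CPM at month 0 and 67.4, 113 and 168 CPM in month 2 oil (log2 fold change 1.65, SE 0.22, adjusted p = 9.22e-07). Pklr, liver pyruvate kinase, had 53.9, 60.7 and 80.8 CPM at month 0 and 128, 143 and 161 CPM in month 2 oil (log2 fold change 1.19, SE 0.19, adjusted p = 2.31e-05). Pparg rose by 1.49, and all 3 were separated. Agpat2, an acyltransferase, fell from 184, 220.1 and 252 to 91.6, 125 and 137 CPM (adjusted p = 3.67e-05), and Pnpla3, a lipase induced by SREBP-1c, from 0.686, 6.48 and 16.7 to 0.396, 1.48 and 2.75 CPM (adjusted p = 0.00582). Scd2, a desaturase, was called lower (-0.64), but not without month 0 replicate 5 or 6, or without month 2 oil replicate 1, 2 or 5 (adjusted p 0.0509 to 0.0826), nor with library totals or limma-voom (0.179 and 0.0635).

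The core lipogenic genes were not called and overlapped between groups. Srebf1 had 176, 228 and 414 CPM at month 0 and 115, 185 and 276 CPM in month 2 oil (adjusted p = 0.271), and Fasn, fatty acid synthase, 438, 983 and 1471 CPM at month 0 and 216, 683 and 971 CPM in month 2 oil (adjusted p = 0.149). Acaca (-0.01), Scd1 (-0.04) and Elovl6 (0.06) had small differences, whose sign turned under some settings.

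Cholesterol synthesis genes were lower. Of 28 tested, 13 fell (46.4%) and 1 rose (3.57%), against 16.4% and 14.8% of all tested genes (median -0.45). Replicates 1 to 3 gave 1 higher and 1 lower, replicates 4 to 6 gave 0 and 18, and library totals 4 and 9. Sqle, squalene epoxidase, had 129.7, 228 and 286 CPM at month 0 and 59.2, 84.3 and 131 CPM in month 2 oil (log2 fold change -1.22, SE 0.23, adjusted p = 1.54e-04), with touching groups, and Mvd fell by 1.51 on the log2 scale. Stard4, a sterol carrier, was the member that rose (log2 fold change 0.50, SE 0.13, adjusted p = 0.00451).

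Among 22 lipid droplet genes, 9 rose (40.9%) and 1 fell (4.55%), against 14.8% and 16.4% of all tested genes. Without month 0 replicate 4 or month 2 oil replicate 5, 6 rose. Replicates 1 to 3 gave 2 higher and 0 lower, and replicates 4 to 6 gave 8 and 2. Fabp2 had 13.8, 17.1 and 25.4 CPM at month 0 and 51.1, 65.8 and 89.4 CPM in month 2 oil (log2 fold change 1.90, SE 0.35, adjusted p = 1.33e-04) and Fitm1, which buds droplets, rose by 2.19, both without overlap. Pnpla2, adipose triglyceride lipase, rose by 0.77 and Plin3 fell by 0.56. Plin2, the main droplet coat protein, had 268, 301 and 350.1 CPM at month 0 and 235, 319.5 and 504 CPM in month 2 oil (adjusted p = 0.631), and Cidec 1.16, 2.24 and 2.79 CPM at month 0 and 1.67, 3.22 and 6.53 CPM in month 2 oil (adjusted p = 0.134, and 0.0417 with library totals). Of 28 lipoprotein and cholesterol transport genes, 7 rose (25%) and 5 fell (17.9%), against 14.8% and 16.4% of all tested genes. The list had 0 higher and 0 lower with replicates 1 to 3, 7 and 4 with replicates 4 to 6, and 15 and 3 with library totals. Without month 0 replicate 4 or 5, 4 were higher. Abca1, the cholesterol exporter to HDL, had 412, 444 and 747 CPM at month 0 and 277, 315 and 352 CPM in month 2 oil (log2 fold change -0.72, SE 0.14, adjusted p = 1.36e-04). Abcg8, the exporter to bile, rose from 16.6, 29.8 and 40 to 47.2, 59.1 and 64 CPM (adjusted p = 3.75e-04), and both were separated. Lcat (-0.49), Apom (-0.72) and Scarb1 (-0.36) fell too, although Scarb1 was not called with library totals (log2 fold change -0.13, adjusted p = 0.356). Apoc2 was called lower (-0.58), but not in 7 fits that each left out 1 library, month 0 replicate 2 or 4 or any month 2 oil replicate except 3 (adjusted p 0.0502 to 0.0937), nor with library totals or no low-count filter (0.212 and 0.0673).

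Of 25 bile acid genes, 10 rose (40%) and 2 fell (8%), against 14.8% and 16.4% of all tested genes (median 0.33). Replicates 1 to 3 gave 0 higher and 1 lower, replicates 4 to 6 gave 13 and 2, and library totals 16 and 2. Slco1a1, a sinusoidal uptake transporter, had 188, 209.5 and 458 CPM at month 0 and 784, 829 and 954 CPM in month 2 oil (log2 fold change 1.70, SE 0.29, adjusted p = 4.54e-05). Baat, which conjugates bile acids, rose by 0.92, and both were separated. Cyp7a1, the rate-limiting and strongly rhythmic enzyme, had 76.5, 166 and 408 CPM at month 0 and 157, 337 and 715 CPM in month 2 oil (adjusted p = 0.294). The members that fell were Slc51b, a basolateral exporter (log2 fold change -2.36, SE 0.56, adjusted p = 0.00152), and Cyp2c70, which makes muricholic acids (log2 fold change -1.12, SE 0.20, adjusted p = 9.56e-05).

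Male-biased genes, which pulses of growth hormone keep high in male liver, were more often called higher than lower. Of 32 male-biased genes, 16 rose (50%) and 3 fell (9.38%), against 14.8% and 16.4% of all tested genes (median 0.99). Replicates 1 to 3 gave 4 higher and 1 lower, and replicates 4 to 6 gave 14 and 2. Hsd3b5, a male-specific steroid reductase, had 14.5, 38.8 and 123 CPM at month 0 and 249, 312 and 381 CPM in month 2 oil (log2 fold change 2.60, SE 0.52, adjusted p = 2.87e-04). Ugt2b1, a glucuronosyltransferase, had 126, 264 and 464 CPM at month 0 and 796, 1005 and 1097 CPM in month 2 oil (log2 fold change 1.74, SE 0.23, adjusted p = 1.40e-06). Both were wholly apart between groups, with the lowest Hsd3b5 value 14.5 CPM at month 0. C8a, a complement chain with male bias, fell by 0.76 without overlap. Serpina1e (-0.85) and Moxd1 (-1.95) were called lower. Serpina1e lost the call in 10 fits that each left out 1 library (adjusted p 0.0511 to 0.128), all but those without month 0 replicate 3 or month 2 oil replicate 2, and Moxd1 without month 0 replicate 2 or 6, or without month 2 oil replicate 2, 3 or 4 (adjusted p 0.0546 to 0.067). Serpina1e was not called with library totals, no low-count filter or limma-voom either (0.133, 0.0772 and 0.0688), nor Moxd1 with the 12 libraries alone or DESeq2 (0.116 and 0.0766).

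Car3, carbonic anhydrase III, abundant in male liver (chr3:14863512-14872523), was outside the list and had 29.7, 188 and 485 CPM at month 0 and 1781, 2481 and 3831 CPM in month 2 oil (log2 fold change 3.64, SE 0.47, adjusted p = 5.94e-07). The month 0 mice ranged widely and none reached the lowest month 2 mouse. The urinary protein pseudogenes Mup-ps6 (3.30) and Mup-ps16 (3.26) were among the 12 highest, and their reads may belong to other Mup copies.

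Female-biased genes went both ways, with 6 of 31 higher (19.4%) and 8 lower (25.8%), against 14.8% and 16.4% of all tested genes. The list had 0 higher and 6 lower with replicates 1 to 3, and 6 and 5 with replicates 4 to 6. Cyp17a1, a steroid hydroxylase, had 27.5, 63.6 and 142 CPM at month 0 and 7.64, 11.7 and 21.9 CPM in month 2 oil (log2 fold change -2.46, SE 0.45, adjusted p = 1.04e-04), without overlap. Cyp2c39 fell by 1.35 and Atp6v0d2 by 1.56. The members called higher rested largely on month 2 oil replicate 5, without which 2 were called. Cyp2b9 had 11 CPM in that mouse and at most 0.473 CPM in the other month 2 mice (4.33, and log2 fold change 1.10, adjusted p = 0.565 without it). Hao2 (3.21) and Ntrk2 (1.71) also lost the call without it (adjusted p = 0.198 and 0.0651). None of the 3 was called with limma-voom (0.563, 0.157 and 0.336). Cyp4a14, Abcd2 (1.33) and Gstt3 (0.80) were the others called higher. Cyp2b10, a target of the receptor CAR, had 0.483, 0.673 and 2.06 CPM at month 0 and 0.25, 0.716 and 1.73 CPM in month 2 oil (adjusted p = 0.943).

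Of 19 growth hormone and IGF genes, 2 rose and 4 fell, near the share of all genes (1 higher and 1 lower with replicates 1 to 3, 4 and 1 with replicates 4 to 6, 5 and 2 with library totals). Esr1, the estrogen receptor (chr10:4611593-5005614), had 57.5, 67.5 and 72.5 CPM at month 0 and 16.3, 24.5 and 27.2 CPM in month 2 oil (log2 fold change -1.50, SE 0.17, adjusted p = 7.11e-08). The groups did not overlap. Cux2, a female-specific repressor, fell by 0.80 from levels under 6 CPM. Igf1, the main product of growth hormone action, had 568, 616 and 677 CPM at month 0 and 503, 539 and 603 CPM in month 2 oil (adjusted p = 0.262).

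Of 29 targets of xenobiotic receptors, 15 rose (51.7%) and 2 fell (6.9%), against 14.8% and 16.4% of all tested genes (median 0.62). Replicates 1 to 3 gave 2 higher and 1 lower, replicates 4 to 6 gave 19 and 1, and library totals 18 and 1. Gstm1, a glutathione transferase, had 189.6, 299.8 and 378 CPM at month 0 and 504, 658 and 775 CPM in month 2 oil (log2 fold change 1.16, SE 0.17, adjusted p = 3.35e-06). Cyp1b1 rose by 2.07 from about 1 CPM, and Cyp3a13 fell from 282, 405 and 455 to 125, 176 and 235 CPM (adjusted p = 4.09e-06). All 3 were separated. Tiparp, a target of the aryl hydrocarbon receptor, was called lower (-0.57), but not without month 2 oil replicate 2 (adjusted p = 0.051) or with library totals (adjusted p = 0.193). Gsta2, a transferase induced through NRF2, had 0.967, 5.28 and 7.13 CPM at month 0 and 26.8, 31 and 65.8 CPM in month 2 oil (log2 fold change 3.01, SE 0.40, adjusted p = 1.17e-06).

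**Figure D4:**
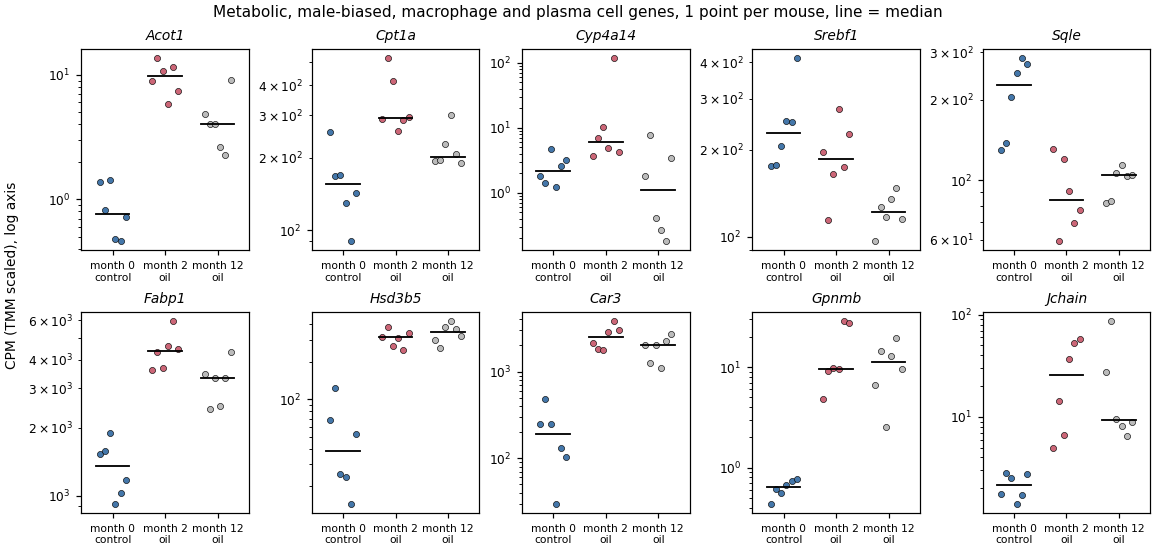
CPM of 10 metabolic, male-biased, macrophage and plasma cell genes on log axes, 1 point per mouse, for month 0 control, month 2 oil and month 12 oil, with a line at the median of 6. Month 2 oil replicate 5 stands alone for Cyp4a14 at 118 CPM, while Acot1, Car3, Hsd3b5 and Gpnmb are higher in all month 2 oil mice.

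Some cell cycle genes were lower. Of 39, 11 fell (28.2%) and 0 rose, against 16.4% and 14.8% of all tested genes (median -0.54). Replicates 1 to 3 gave 1 higher and 1 lower, replicates 4 to 6 gave 0 and 21, and library totals 2 and 4. Leaving out 1 library gave 6 (without month 0 replicate 5) to 17 lower. Mcm5, a subunit of the replicative helicase, had 3.3, 7.02 and 9.83 CPM at month 0 and 2.63, 3.18 and 4.26 CPM in month 2 oil (log2 fold change -1.06, SE 0.20, adjusted p = 1.30e-04). Mcm4 fell by 0.61 (not called with library totals, adjusted p = 0.051) and Mcm3 by 0.63 on the log2 scale. Mki67, a marker of dividing cells, had 3.41, 9.6 and 20.6 CPM at month 0 and 4.04, 6.75 and 12.3 CPM in month 2 oil (adjusted p = 0.189), and Ccnd1, cyclin D1, 33.8, 39.8 and 89.9 CPM at month 0 and 19.2, 29 and 59.6 CPM in month 2 oil (adjusted p = 0.145). Neither was called, although Ccnd1 was without month 2 oil replicate 2 (log2 fold change -0.71, adjusted p = 0.0336). The fetal genes Afp (1.37, 2.26 and 3.67 CPM at month 0 and 1.54, 1.75 and 2.29 CPM in month 2 oil) and Igf2 (0.671, 1.54 and 3.62 CPM at month 0 and 0.577, 0.818 and 2.11 CPM in month 2 oil) were low in both groups and not called (adjusted p = 0.69 and 0.431).

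Matrix genes went both ways. Of 38, 8 rose and 5 fell, near the shares of all genes (1 higher and 1 lower with replicates 1 to 3, 12 and 6 with replicates 4 to 6, 15 and 3 with library totals). Col3a1, of fibrillar collagen, had 41.1, 51 and 66.3 CPM at month 0 and 64.9, 106 and 163 CPM in month 2 oil (log2 fold change 1.04, SE 0.31, adjusted p = 0.00946), with touching groups. Col1a1 had 5.32, 6.23 and 7.62 CPM at month 0 and 5.9, 12.7 and 29.1 CPM in month 2 oil (log2 fold change 1.11, SE 0.38, adjusted p = 0.0245) and lost the call without month 2 oil replicate 6 (log2 fold change 0.74, adjusted p = 0.135) or month 0 replicate 4 (log2 fold change 1.05, adjusted p = 0.0535), and with limma-voom (log2 fold change 0.90, adjusted p = 0.148). Without month 2 oil replicate 6, 4 of the list were higher. Those that fell were Col4a1, of basement membranes, with 60.2, 64.7 and 118 CPM at month 0 and 34.2, 47.3 and 55.7 CPM in month 2 oil (log2 fold change -0.79, SE 0.18, adjusted p = 0.00115), Col15a1 (-1.10), Fn1 (-0.82), Mmp14 (-0.81) and Nid1 (-0.73). Nid1 lost the call without replicate 4 or 5 of either group (adjusted p 0.0606 to 0.092) and with library totals, as did Fn1 (0.146 and 0.0626). Col6a5, a chain of type VI collagen, was among the 12 highest, with 1.4, 1.59 and 1.96 CPM at month 0 and 7.08, 21.3 and 41.9 CPM in month 2 oil (log2 fold change 3.71, SE 0.71, adjusted p = 1.72e-04).

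Transcripts of other tissues differed between libraries. The 20 pancreas genes summed to 11 to 18251 CPM at month 0 and 32.4 to 25692 CPM in month 2 oil, with medians of 2152 and 12610 CPM, and 0 were called, with Cela1 at 8.52, 129 and 845 CPM at month 0 and 29.9, 805 and 1698 CPM in month 2 oil (adjusted p = 0.468), Sycn at an adjusted p of 0.541 and Cel at 0.604. Of 14 mesothelial genes, 7 rose (50%) and 1 fell (7.14%), against 14.8% and 16.4% of all tested genes. Replicates 1 to 3 gave 0 higher and 1 lower, and replicates 4 to 6 gave 5 and 1. Without month 2 oil replicate 6, 3 rose. Muc16 had 0.628, 1.89 and 2.39 CPM at month 0 and 4, 5.9 and 17.7 CPM in month 2 oil (log2 fold change 2.18, SE 0.57, adjusted p = 0.00363) and Gpm6a rose by 1.37. Clu, clusterin, which hepatocytes also secrete, fell from 1589, 1799 and 2057 to 719, 834 and 870.4 CPM (adjusted p = 7.86e-10). Of 14 erythroid genes, 7 rose (50%) and 0 fell, against 14.8% and 16.4% of all tested genes. Replicates 1 to 3 gave 2 higher and 0 lower, and replicates 4 to 6 gave 9 and 0. The 14 summed to 228 to 1092 CPM at month 0 and 1052 to 1870 CPM in month 2 oil. Alas2 had 38.1, 57.4 and 82.6 CPM at month 0 and 124, 134 and 146 CPM in month 2 oil (log2 fold change 1.15, SE 0.16, adjusted p = 3.15e-06), Car1 rose by 2.43 and Klf1 by 1.26. Alas2 also stands in the male-biased list. Reg3b, an antimicrobial lectin of gut and pancreas, fell from 15.3, 50.4 and 115 to 0.0456, 4.03 and 11 CPM (log2 fold change -3.46, SE 1.14, adjusted p = 0.0197). The part of these tissues in the results above was not tested. Of 13 mitochondrially encoded genes, 5 rose (38.5%) and 0 fell, against 14.8% and 16.4% of all tested genes. They were led by mt-Cytb (log2 fold change 0.54, SE 0.15, adjusted p = 0.00614), mt-Nd4 (0.61) and mt-Atp8 (0.54). With library totals all 13 rose. Replicates 1 to 3 gave 0 higher and 0 lower, and replicates 4 to 6 gave 12 and 0.

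The rest of the 12 highest and 12 lowest fold changes were genes of low level. Olig1, a transcription factor, had 0.0483, 0.426 and 0.774 CPM at month 0 and 2.65, 3.95 and 4.67 CPM in month 2 oil (log2 fold change 3.27, SE 0.55, adjusted p = 3.44e-05). Crybb3, a crystallin, had 4.27, 15 and 32.9 CPM at month 0 and 0.264, 0.465 and 0.71 CPM in month 2 oil (log2 fold change -5.22, SE 0.59, adjusted p = 7.17e-08), and Akr1b7, an aldose reductase, 1.48, 3.51 and 34.2 CPM at month 0 and 0.0861, 0.284 and 0.88 CPM in month 2 oil (log2 fold change -4.73, SE 0.87, adjusted p = 1.04e-04). All were separated. Rnf138rt1 had 474 counts in the 6 month 0 libraries and 4 in the 6 month 2 libraries (log2 fold change -6.90, SE 0.81, adjusted p = 1.21e-07). Asprv1, a protease, had 53 CPM in month 0 replicate 3 and at most 0.787 CPM in the other month 0 mice (log2 fold change -6.63, SE 1.27, adjusted p = 1.78e-04). Without that mouse its difference was -2.65 (adjusted p = 0.0179).

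The spread among the month 0 mice was compared with that among the month 2 oil mice. The SD of log-CPM was larger at month 0 for 9175 genes (59.8%), with medians of 0.248 and 0.214. A Levene-type limma test on absolute deviations called 35 of 15338 genes (0.228%), 22 with larger spread at month 0 (0.143%) and 13 with larger spread in month 2 oil (0.0848%), and 1786 genes had an unadjusted p below 0.05. On simulated data this test called 87% of genes whose month 0 mice divided 3 against 3 by 8-fold, and 13.9% of its calls were unchanged genes. It called 0.5% of genes with a 4-fold larger SD and no such division, and there 80% of its calls were unchanged genes. Smaller divisions were not simulated. The test therefore does not count all genes that differ in spread. Of the 22 genes, 19 had replicates 1 to 3 of month 0 wholly above or below replicates 4 to 6, and of the 13, 10 had the same division in month 2 oil. With 1 library left out the count ran from 3, without month 0 replicate 1 or 5, to 56, without month 0 replicate 6. It moved by over 1.5 times for each of the 12 libraries.

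Abca8a, a lipid transporter, had 110.4, 93.5 and 95.8 CPM in month 0 replicates 1, 2 and 3 and 33.3, 35.9 and 32.7 CPM in replicates 4, 5 and 6, against 136, 160.0 and 169 CPM in month 2 oil (spread test, adjusted p = 6.20e-05). Hspa8, the constitutive cytosolic chaperone (chr9:40800984-40810087), had 3296, 3025 and 2448 CPM in replicates 1, 2 and 3 and 559, 693 and 663 CPM in 4, 5 and 6, with the month 2 mice between these levels at 733, 1064 and 1174 CPM (adjusted p = 0.00178). Its mean was called lower at month 2 (-0.79), with -1.45 in replicates 1 to 3 and 0.61 in replicates 4 to 6, so the direction turned, and the call was lost in 8 fits that each left out 1 library, all but those without month 0 replicate 4, 5 or 6, or without month 2 oil replicate 3 (adjusted p 0.0522 to 0.164), and with library totals, no low-count filter, the 12 libraries alone or limma-voom (0.148, 0.0693, 0.178 and 0.308). Dnajc10, a reductase of the endoplasmic reticulum, went the other way, with 56.5, 62.9 and 62.4 CPM in the first 3 replicates and 125, 106 and 106 CPM in the last 3. Cc2d2a, a ciliary protein, was also low in replicates 1 to 3, between 2.12 and 2.55 CPM, and high in 4 to 6, between 4.77 and 4.90 CPM. Ces2d-ps, a carboxylesterase pseudogene, had 20 counts over the 6 month 0 libraries, with none in replicates 1, 4 and 5.

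Genes with more spread in month 2 oil divided at the same numbers. Nnmt, nicotinamide N-methyltransferase, had 202, 174 and 226 CPM in month 2 oil replicates 1, 2 and 3 and 95.3, 86.5 and 80.4 CPM in 4, 5 and 6, against 383, 438 and 518 CPM at month 0 (adjusted p = 0.0337). Fbxo31, an F-box protein, had 32.8, 42.1 and 31.5 CPM against 16.1, 15.7 and 18.2 CPM, and Btla, a lymphocyte inhibitory receptor, 1.27, 1.1 and 1.09 CPM against 2.54, 2.46 and 2.5 CPM. Ccl20 and Wfdc16 were called on 2 counts each in month 2 oil and 0 at month 0, at or under the floor of 3 counts over a group, and give no comparison. Over all genes, the root mean square distance of a mouse from the mean of the other 5 of its group was 0.594 ± 0.087 at month 0 and 0.559 ± 0.119 in month 2 oil on the log2 scale (SD, n = 6). The difference of -0.0357 had a two-sided exact permutation p = 0.552, where the smallest possible is 0.00216, and distances within a group share mice. Pairs of mice lay 0.59 to 0.978 apart within month 0, 0.486 to 0.943 within month 2 oil and 0.673 to 1.15 between the groups.

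**Figure D5:**
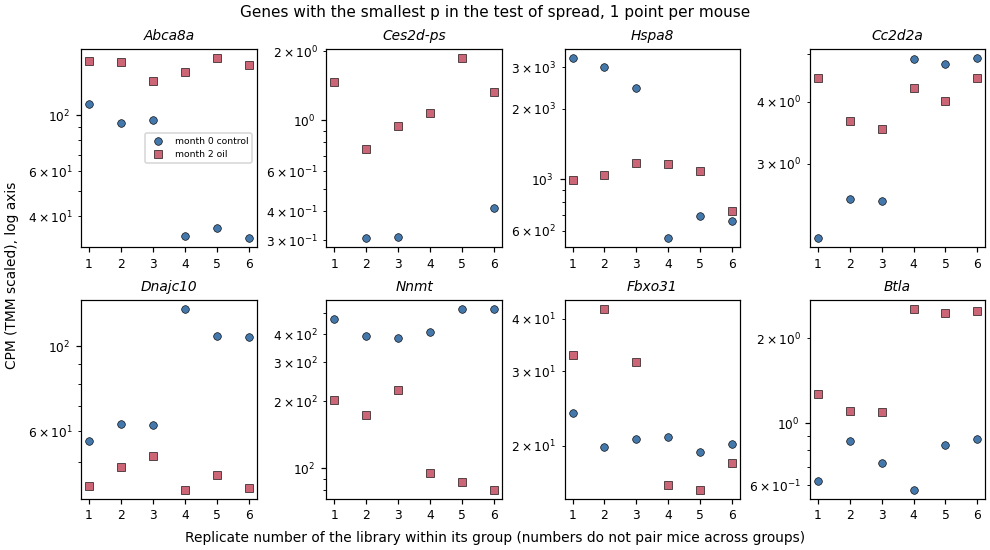
CPM on log axes against replicate number within a group for 8 genes with the smallest p in the test of spread, month 0 control as circles and month 2 oil as squares, where the 0 values of Ces2d-ps in month 0 replicates 1, 4 and 5 are not drawn. Replicates 1 to 3 and 4 to 6 stand at separate levels in month 0 for Abca8a, Hspa8, Cc2d2a and Dnajc10, and in month 2 oil for Nnmt, Fbxo31 and Btla.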

How the data were processed

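The data were RNA-seq of whole mouse liver from ribosome-depleted total RNA, sequenced on paired ends. The deposited values were raw counts per gene symbol, which the authors mapped with Biojupies to mm10, per the submitters' processing notes, which also list edgeR 3.30.3 and limma 3.44.3. The annotation and the strand setting of the counting are not given in the sources used here. Samples were grouped by title, and 0 other per-sample columns were left out.

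Genes were tested with edgeR 4.0.16 (quasi-likelihood, filterByExpr, TMM, 36 libraries in 1 fit, 1 coefficient per group) in R 4.3.3, with Benjamini-Hochberg adjustment and a threshold of 0.05. Spread was tested with limma 3.58.1 on absolute deviations of log-CPM (prior count 1), and 1 distance per mouse with an exact permutation test. The tests were tried on simulated data, where the spread test found mainly 3-against-3 divisions, simulated at 8-fold. Alternatives were other scalings, filters and prior counts, DESeq2 1.42.0, limma-voom, the 12 libraries alone, a replicate block, each library left out, and, added after seeing the data, replicates 1 to 3 or 4 to 6 of each group. Same-numbered replicates deviated together for numbers 2 and 5 but not for all 6 (r from -0.251 to 0.469), so the numbers were not taken as pairs.

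Genes were named if they were among the 12 highest or lowest fold changes of called genes averaging 1 CPM or more, in a panel of pathway genes, among the 3 smallest p-values of a list or called against its median, or among the 5 smallest p-values in each direction for spread. Predicted, mitochondrial and immune receptor symbols were left out of the first and last of these. The members and lists were chosen with earlier results of these data known. Gene positions are from GENCODE vM21 (GRCm38) and promoters from RefSeq (GRCm38.p6). Some genes that this rule names are not reported here.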

Additional observations from a re-analysis of the deposited data

Results flagged for a closer look

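In 44 of 506 sets of 6 mice (8.7%) the highest or lowest mouse stood apart from the other 5, where chance gives about 1 in 20. The sets cover 216 genes, 36 list levels and the distance of a mouse from its group, each in both groups, and they share mice. Month 0 replicate 4 accounted for 8 of the 44, month 2 oil replicate 5 for 7 and month 2 oil replicate 3 for 6. Values are in CPM, with the range of the other 5 mice of the group in brackets. Month 0 replicate 1 held the highest value of Pklr at 80.8 (53.9 to 61.7) and Fbxo31 at 23.9 (19.3 to 20.9). Month 0 replicate 2 held the highest value of Cxcl13 at 9.78 (2.68 to 4.21) and the lowest value of Scd1 at 3906 (7173 to 9590). Month 0 replicate 3 held the highest value of Hamp2 at 25.8 (3.43 to 6.87), Cyp2b10 at 2.06 (0.483 to 0.787) and Asprv1 at 53 (0.361 to 0.787). Month 0 replicate 4 held the highest value of Orm2 at 3238 (1966 to 2314), C4bp at 1931 (1381 to 1548), C3 at 19222 (14256 to 15780), Kng2 at 787 (573 to 616) and Serpina1e at 20842 (10700 to 13323) and the lowest value of Nr1d1 at 0.532 (3.82 to 7.79) and Me1 at 22.2 (36.9 to 42.8). Month 0 replicate 5 held the highest value of Ccl8 at 0.602 (0.0967 to 0.257) and the lowest value of Cyp3a13 at 282 (384 to 455) and Cel at 0 (72.9 to 774). Month 0 replicate 6 held the highest value of Themis at 1.34 (0.662 to 0.787) and Col15a1 at 17.8 (11 to 12.8) and the lowest value of Mt2 at 199 (636 to 877). In month 2 oil, replicate 1 held the highest value of Hspa4l at 49.7 (24.5 to 31.8) and Cyp2c70 at 1019 (511 to 652). Replicate 2 of month 2 oil held the highest value of Rnf138rt1 at 0.132 (0 to 0.0364) and the lowest value of Agpat2 at 91.6 (121 to 137) and Stard4 at 119 (142 to 148). In replicate 3 of month 2 oil stood the highest value of Lcn2 at 36.4 (4.43 to 10.1), Itih4 at 2092 (1327 to 1527), Slc11a2 at 35.5 (22.4 to 26.5), Prtn3 at 2.51 (0.137 to 0.616) and Csf1 at 10.8 (7.35 to 8.31). Month 2 oil replicate 4 held the highest value of Socs3 at 27.1 (7.53 to 12.1). Month 2 oil replicate 5 held the highest value of Cyp4a14 at 118 (3.73 to 10.3), Cyp2c39 at 1.96 (0.8 to 1.04), Cyp2b9 at 11 (0.0364 to 0.473), Hao2 at 1.96 (0.0385 to 0.25) and Gsta2 at 65.8 (26.8 to 36.2) and the lowest value of Cel at 0.0456 (140 to 1559). Month 2 oil replicate 6 held the lowest value of Ftl1 at 2058 (2336 to 2508) and Hspa8 at 733 (988 to 1174).

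Of the list levels, means of log2(CPM + 1) over the members, 5 had a mouse apart. The acute phase proteins list was highest in month 2 oil replicate 3 at 8.17 (7.11 to 7.45). The T and NK cells list was lowest in month 0 replicate 4 at 0.641 (0.79 to 0.85). The cholesterol synthesis and uptake list was lowest in month 2 oil replicate 2 at 6.28 (6.77 to 7.04). The lipoproteins and reverse cholesterol transport list was lowest in month 0 replicate 5 at 7.79 (7.94 to 8). The female-biased hepatocyte genes list was highest in month 2 oil replicate 5 at 2.53 (1.78 to 1.89).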

How the results depend on the processing

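The count of genes called between month 2 oil and month 0 stayed within 1.5 times of 4797 under every alternative over all 6 mice or 5 of 6, from 4032 without month 0 replicate 5 to 6298 with library totals alone. Library totals alone split the calls into 5270 higher and 1028 lower. With a library left out, 1763 to 2247 genes were higher and 2232 to 2727 lower. With replicates 1 to 3 of each group, 1133 were called, 483 higher and 650 lower, in a fit with fewer samples, and with replicates 4 to 6, 5043, 2293 higher and 2750 lower. The count for spread (35, of which 13 were larger in month 2 oil and 22 at month 0) became 80 with prior count 5 (40 and 40), 6 with squared deviations (2 and 4) and 728 with no low-count filter (424 and 304). Leaving out a library gave 3 to 56, with 2 to 15 larger in month 2 oil and 1 to 41 larger at month 0. The cause was not tested. The difference in distance between mice lay between -0.0834 and -5.71e-04, with p between 0.162 and 0.996.

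The fit with the replicate number as a block called 4724 genes, 2237 higher and 2487 lower, and 5 named genes lost the call with it: Proc (adjusted p = 0.0643), Serpina1e (0.0566), Cyp2b9 (0.0505), Reg3b (log2 fold change -2.89, adjusted p = 0.0799) and Hspa8 (0.0999). Month 0 replicates 1, 2 and 5 correlated best with their own number, and the other 3 did not. For spread, the block leaves equal and opposite deviations in both groups, so it gave no value.

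Of 183 named called genes, 149 kept call and direction under every alternative except the fits to 3 replicates of each group, 26 lost the call without some library, and 6 genes not called gained it. The sign turned in 52 of 4740 values, and the cause was not tested. With library totals alone the log2 fold change was 0.18 for Hamp, 0.21 for Acaca, 0.20 for Scd1, 0.11 for Cyp2b10, 0.05 for Igf1, 0.08 for Apoa1 and 0.04 for Hnf4a. Acaca was 0.01 with no low-count filter and 0.00 with the 12 libraries, and Cyp2b10 0.21 with the replicate block. With replicates 1 to 3 it was -0.48 for Cd3e, -0.01 for H2-Aa, -0.13 for H2-Eb1, 0.08 for Acaca, -0.12 for Plin2, -0.80 for Cyp2b9, -0.17 for Ntrk2, 0.11 for Afp and 0.25 for Ccnd1. With replicates 4 to 6 it was 0.06 for Hamp, -0.19 for Per2, -0.04 for Ciart, 0.09 for Scd1, -0.11 for Elovl6, 0.56 for Cyp2b10, 0.24 for Igf2, -0.34 for Cela1, -0.19 for Sycn, -0.35 for Cel, 0.61 for Hspa8, -0.22 for Cc2d2a, -0.30 for Fbxo31 and 0.12 for Hnf4a. With 1 library left out, values ran from -0.22 to 0.11 for Hamp, -0.15 to 0.20 for Per2, -0.08 to 0.04 for Acaca, -0.19 to 0.04 for Scd1, -0.05 to 0.14 for Elovl6 and -0.46 to 0.33 for Cyp2b10. List counts moved by over 1.5 times in 197 of 1584 cases, 66 of them by leaving out a library and 29 by library totals alone.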
